A study of Mus musculus with 12 samples.

Results

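The comparison described here is that of male osteoclast cultures labelled Per2 knockout with male control cultures, 6 of the 12 RNA sequencing libraries of the study. All genes were taken whose level reached 1 FPKM, a count of fragments scaled to gene length and library depth, in at least 3 of the 12 libraries, which were 12102 of 55806 genes, 10390 of them protein coding. Monocytes from the bone marrow of mice aged 8 to 12 weeks were cultured with M-CSF and RANKL and collected on differentiation day 4. Both male groups were treated alike and differ in the genotype label, Control or Per2 knockout, with 3 libraries each, 1 from each of 3 labelled batches. The series title names PER1, whereas sample labels and column names give Per2, so the identity of the deleted gene rests on the labels. The library names of the knockout carry cKO, usually read as conditional knockout. The deleted exons and the Cre line that would remove them were not stated. Sample titles call the replicates biological, but whether each came from a mouse of its own was not stated. The p-values thus rest on the spread between libraries, which may not be that between mice. The female cultures, with the same 2 genotype labels and 3 libraries each, served to estimate the spread and to test where male and female changes differed.

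Per2 encodes a protein that represses the circadian clock. The activators CLOCK and ARNTL (BMAL1) bind E-box sequences and switch on the Per and Cry genes, whose proteins return to the nucleus and hold the activators back. Osteoclasts are the bone-resorbing cells that arise when monocytes receive M-CSF through CSF1R and RANKL through RANK (Tnfrsf11a), which together induce the master regulator NFATc1, cell fusion, and the acid and proteases that dissolve bone. NRF2 acts on genes of glutathione and antioxidant defence through the antioxidant response element, and the interferon factor ISGF3 on antiviral genes through the interferon-stimulated response element.

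Promoter windows of members of the clock, antioxidant and interferon lists are shown because the report returns to those lists. Each window is RefSeq sequence of the build GRCm38.p6, from 250 bases before to 50 bases after a transcription start, written on the gene's strand with the motif in capitals, and both strands were searched. The E-box was searched as CACGTG. It was found in 7.15% of all 32851 windows and in 5 of the 22 windows (22.7%) of the 14 tested clock genes that had one, belonging to Bhlhe41, Cry1, Per1 and Tef. Bhlhe41 and Per1 are the members with the smallest p among these. Bhlhe41 lies at chr6:145865371-145865670 (minus strand) and Per1 at chr11:69098699-69098998 (plus strand).
Bhlhe41: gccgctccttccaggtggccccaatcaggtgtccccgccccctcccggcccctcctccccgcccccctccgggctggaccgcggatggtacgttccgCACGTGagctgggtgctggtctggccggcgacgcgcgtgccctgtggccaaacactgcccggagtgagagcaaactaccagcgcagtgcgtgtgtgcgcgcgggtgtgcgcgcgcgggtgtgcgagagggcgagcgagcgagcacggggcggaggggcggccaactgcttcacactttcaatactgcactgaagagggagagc
Per1: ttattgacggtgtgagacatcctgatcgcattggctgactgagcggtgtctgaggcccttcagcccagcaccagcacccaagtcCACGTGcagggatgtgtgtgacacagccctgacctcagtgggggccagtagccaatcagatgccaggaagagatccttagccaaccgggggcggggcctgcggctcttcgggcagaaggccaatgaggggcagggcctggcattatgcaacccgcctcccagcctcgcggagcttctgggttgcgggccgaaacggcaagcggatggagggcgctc

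The antioxidant response element was searched as TGACNNNGC, which 12.4% of all windows held, and 10 of the 37 windows (27%) of the 27 NRF2 and glutathione genes that had one. The interferon-stimulated response element was searched as a pair of GAAA with any 2 bases between them, which 3.44% of all windows held, and 22 of the 40 windows (55%) of the 34 interferon-stimulated genes that had one. Gclm at chr3:122245307-122245606 and Prdx1 at chr4:116685349-116685648 represent the first list and Gbp7 at chr3:142530086-142530385 the second, each on the plus strand and with the smallest p among the members whose windows held the motif. A match is a description of these letters and not a measured binding site.
Gclm: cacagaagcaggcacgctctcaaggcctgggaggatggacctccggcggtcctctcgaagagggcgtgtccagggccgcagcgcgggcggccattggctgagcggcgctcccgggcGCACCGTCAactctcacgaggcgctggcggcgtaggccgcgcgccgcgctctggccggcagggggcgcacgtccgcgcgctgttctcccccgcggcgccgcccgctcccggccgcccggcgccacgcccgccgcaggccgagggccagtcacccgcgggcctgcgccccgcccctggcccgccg
Prdx1: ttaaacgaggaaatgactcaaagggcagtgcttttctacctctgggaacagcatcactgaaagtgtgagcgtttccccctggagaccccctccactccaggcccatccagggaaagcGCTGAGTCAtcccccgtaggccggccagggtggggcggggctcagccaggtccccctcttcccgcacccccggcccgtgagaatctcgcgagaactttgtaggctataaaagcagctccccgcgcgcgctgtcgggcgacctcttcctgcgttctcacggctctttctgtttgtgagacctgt
Gbp7: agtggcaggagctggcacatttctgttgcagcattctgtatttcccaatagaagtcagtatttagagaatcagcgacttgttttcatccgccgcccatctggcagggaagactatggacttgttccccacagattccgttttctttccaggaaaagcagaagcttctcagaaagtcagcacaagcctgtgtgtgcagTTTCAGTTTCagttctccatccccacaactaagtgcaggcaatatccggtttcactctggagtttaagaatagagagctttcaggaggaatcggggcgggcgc

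The other 5 male libraries held 17024720 to 17762190 reads assigned to genes against 41145397 in male knockout replicate 2. On the first principal component of the 6 male libraries, with 29.5% of the variance, the groups overlapped: control replicate 3 (13.0) and knockout replicate 1 (12.2) lay at one end and control replicates 1 and 2 (−15.0 and −8.21) at the other. On the second, with 22.2%, the controls lay at 1.60, 7.05 and 13.4 and the knockouts at −6.34, −1.76 and −14.0, without overlap. The summed level of 10 osteoclast markers was 8239 to 9447 FPKM in controls and 8304 to 9306 in knockouts. Ctsk, Mmp9 and Acp5 gave most of it, so these osteoclast markers were abundant in every library. The sum of 24 macrophage markers, most of it Lyz2, was higher, at 15199 to 18459 FPKM in controls and 15866 to 17014 in knockouts. Ctsk ranked 4th, Mmp9 11th and Acp5 14th by mean level in male controls, while Lyz2, the lysozyme of macrophages and neutrophils, ranked first.

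Per2 was low in all 6 libraries. It was 0.579, 0.721 and 0.701 FPKM in the controls, from 56, 66 and 66 reads, and 0.466, 0.390 and 0.230 FPKM in the knockouts, from 43, 86 and 21 reads. Every knockout library lay below every control, and the most deeply sequenced library was not the lowest. The ratio of the group means was 0.543, with an exact two-sided permutation p of 0.1, the smallest that 3 against 3 libraries allow. The level is below the filter, so Per2 was not among the tested genes, and a transcript that lacks the deleted exons could still be counted.

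**Figure D1:**
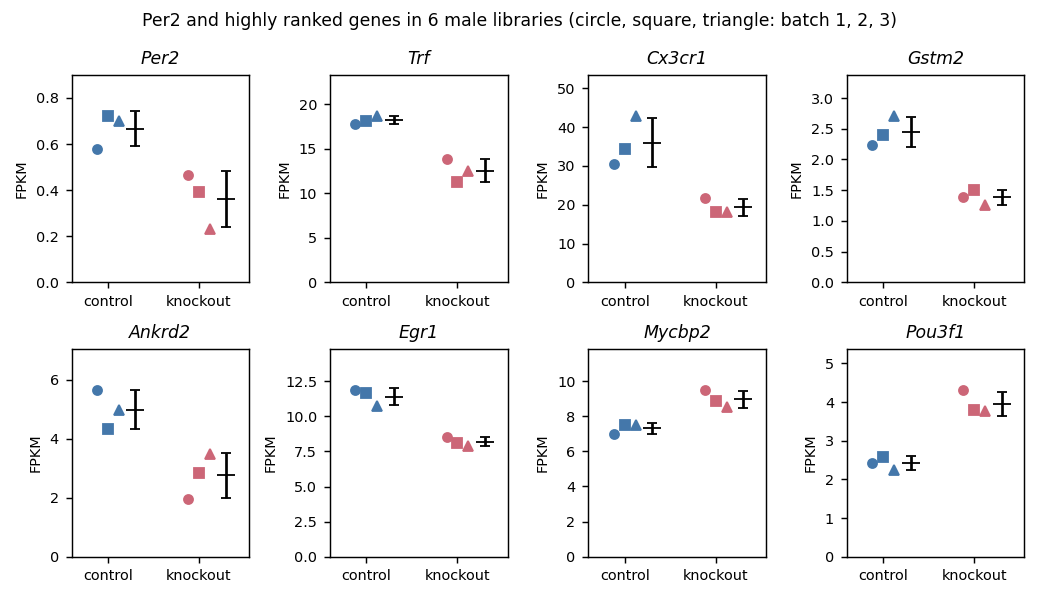
FPKM of Per2 and 7 named genes in the 6 male libraries, each panel with its own axis from 0; blue points are controls, red points knockouts, shapes mark the labelled batch, and black marks give the mean and SD (n = 3). In each panel the 3 knockout points lie on one side of the 3 control points, below them for Per2, Trf, Cx3cr1, Gstm2, Ankrd2 and Egr1 and above them for Mycbp2 and Pou3f1.

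Across the 12102 genes, limma on log2(FPKM + 1) called 0 (0%) at an adjusted p of 0.05, with 822 (6.79%) at an unadjusted p under 0.05 where 605 would be expected with no difference. With 1 male library left out that count ran from 567 (without knockout replicate 3) to 1238 (without control replicate 3). Without control replicate 2 it was 580, so it could also fall below the expected number. On whole reads recovered from the table, limma voom called 2, Cx3cr1 and Trf. Of the 822, 440 (3.64% of all tested) were higher in knockouts and 382 (3.16%) lower. All 3 knockout libraries lay above all 3 controls for 855 genes (7.06%) and below them for 634 (5.24%). A gene had the same sign in all 3 batches upward for 1842 genes (15.2%) and downward for 1515 (12.5%). Full separation of 3 from 3 libraries has an exact two-sided permutation p of 0.1, so many genes would separate with no difference. Agreement of sign over 3 batches is likewise common with no difference. The median standard error of a log2 change was 0.0754 and the median half-width of its 95% interval 0.166. The unadjusted 95% interval lay within a log2 change of −1 and 1 for 96.2% of genes, and the estimate was past 1 in size for 33 genes (0.273%), 11 of them higher (0.0909%) and 22 lower (0.182%). In the same model the female comparison called 6027 genes (49.8%), and the difference between female and male knockout effects passed for 4185 (34.6%). Of the latter, 51.7% were higher in the female comparison, against 34.4% with assigned reads as the denominator. No gene below passed the adjusted threshold in males in limma as fitted here, and each is given by its values. All log2 changes are knockout minus control on the log2(FPKM + 1) scale, which understates the change of low genes.

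Genes of osteoclast identity and function had levels that mostly overlapped between the groups. The intervals of the abundant Acp5, Ctsk and Mmp9 were no narrower than the median over all tested genes. Acp5, tartrate-resistant acid phosphatase, was 2123, 1989 and 1925 FPKM in controls and 1988, 2132 and 1949 in knockouts. Its log2 change was 0.01, with a 95% interval from −0.16 to 0.18. Ctsk, the collagen-degrading protease cathepsin K, was 4165, 3870.1 and 3689 FPKM in controls and 3616, 4210.1 and 3817 in knockouts. Its interval ran from −0.21 to 0.19. Mmp9, a matrix metalloproteinase, was 2625, 2472 and 2184 FPKM in controls and 2238, 2426 and 2236 in knockouts, an interval from −0.25 to 0.10. The groups overlapped for all 3 genes. Calcr, the calcitonin receptor, ranked only 4929th in level and had a wider interval, −0.09 to 0.42, with 11.7, 8.14 and 9.21 FPKM in controls and 9.89, 11.4 and 11.3 in knockouts.

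The bone resorption list, with the proton pump, chloride channel, proteases and integrin of the resorbing membrane, had 32 tested genes. None had an unadjusted p under 0.05 and 1 lay wholly below the controls, where 6.79% and 5.24% of all tested genes did. The median change was −0.01 against 0.01 over all tested genes, and all 32 intervals lay within −1 and 1. Itgb3, the beta chain of the vitronectin receptor, was 68.9, 61.9 and 65.0 FPKM in controls and 68.5, 62.2 and 64.9 in knockouts, with an interval from −0.13 to 0.13. These are nearly matching values batch by batch. Atp6v0d2, a proton pump subunit that also takes part in fusion, was 205, 188 and 171 FPKM in controls and 163, 203 and 182 in knockouts (interval −0.28 to 0.19).

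Among 13 tested fusion genes, 2 had an unadjusted p under 0.05, both lower and without overlap (background 3.16% lower and 5.24% wholly below). Atp6v0d1, the other d subunit of the proton pump, was 107, 108 and 98.9 FPKM in controls and 93.1, 94.3 and 91.2 in knockouts (log2 change −0.17 ± 0.04, SE). Cd81, a tetraspanin, was 13.9, 15.8 and 15.1 FPKM in controls and 12.1, 13.2 and 12.6 in knockouts (−0.22 ± 0.07). Both adjusted p-values of limma were above 0.5 (0.531 and 0.653). The fusion receptors differed in the other direction within their spread: Dcstamp was 101, 101 and 75.9 FPKM in controls and 89.0, 118 and 101 in knockouts, an interval from −0.16 to 0.45. Ocstamp was 42.9, 42.2 and 35.7 FPKM in controls and 39.6, 43.5 and 44.7 in knockouts, an interval from −0.10 to 0.27. In both genes control replicate 3 was the lowest library.

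Of 30 genes that carry the M-CSF and RANK signals, 20 were above 0, the median was 0.02, 2 lay wholly above and 2 wholly below the controls (background 7.06% and 5.24%). Csf1r, the M-CSF receptor, was 225, 226 and 217 FPKM in controls and 209, 212 and 206 in knockouts (−0.09 ± 0.03, limma adjusted p = 0.681). Tnfrsf11a, which encodes RANK, was 38.8, 38.7 and 35.1 FPKM in controls and 39.1, 39.4 and 41.1 in knockouts (0.09 ± 0.05, adjusted p = 0.801). The receptors thus lay apart in opposite directions by under 10%, with knockout levels at 0.937 and 1.06 times the control mean. Syk, the kinase below the costimulatory receptors, was 45.8, 44.8 and 45.0 FPKM in controls and 47.1, 47.1 and 46.7 in knockouts. Nfatc1 was 36.9, 36.6 and 31.4 FPKM in controls and 35.7, 36.0 and 36.7 in knockouts, groups that overlapped, with an interval from −0.10 to 0.20.

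**Figure D2:**
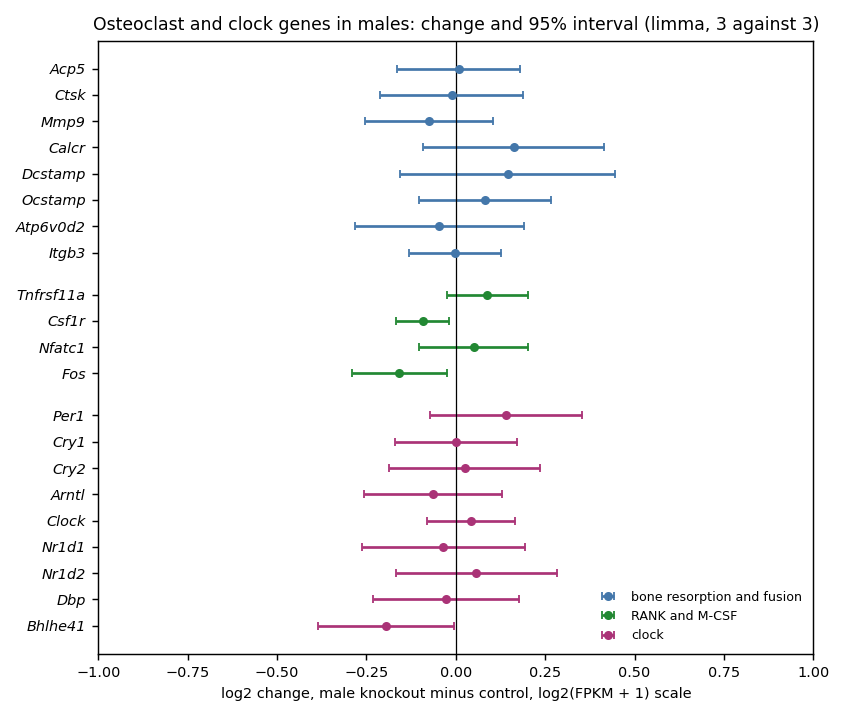
Estimated log2 change (points) and unadjusted 95% limma interval (bars) for 21 osteoclast and clock genes, male knockout minus control, 3 libraries each. Every interval lies between −0.5 and 0.5, that of Dcstamp reaches 0.45, and those of Csf1r, Fos and Bhlhe41 lie below 0.

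The clock list had 18 of 24 genes above the filter, and Per3 was below it. Of the 18, 12 were above 0 and the median was 0.01. None was higher and 1 was lower at an unadjusted p under 0.05, where 3.64% and 3.16% of all tested genes were, and every one of the 18 intervals lay within −1 and 1. Per1, the paralogue of Per2 whose window is shown above, was 4.38, 3.82 and 4.98 FPKM in controls and 5.58, 4.37 and 4.88 in knockouts, overlapping (0.14, interval −0.07 to 0.35). Cry1, a partner of the PER proteins, was 6.05, 7.20 and 6.24 FPKM in controls and 7.35, 5.94 and 6.24 in knockouts. Its interval ran from −0.17 to 0.17.

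The clock activators had intervals on both sides of 0. Arntl was 1.28, 1.04 and 1.08 FPKM in controls and 1.00, 1.00 and 1.11 in knockouts (−0.06, interval −0.26 to 0.13). Clock was 3.13, 2.97 and 3.28 FPKM in controls and 3.18, 3.49 and 3.10 in knockouts (0.04, interval −0.08 to 0.17). The groups overlapped for both. Of the outputs, Nr1d1, a nuclear receptor that represses Arntl, differed by −0.03 (interval −0.26 to 0.19) and Dbp, an activator of clock output genes, by −0.03 (interval −0.23 to 0.18), estimates that did not pass. Bhlhe41, a repressor that competes at E-boxes, was the list's lowest estimate: 3.54, 3.40 and 3.42 FPKM in controls and 3.50, 2.77 and 2.46 in knockouts (−0.20 ± 0.09, adjusted p = 0.727). Knockout replicate 1 lay inside the control range and the other 2 below it.

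The 3 genes with the smallest p in males, Trf, Cx3cr1 and Gstm2, were lower in knockouts. Trf, which encodes the iron carrier transferrin, was 17.8, 18.1 and 18.7 FPKM in controls and 13.8, 11.3 and 12.5 in knockouts. Every knockout library was below the controls, and the knockout mean was 0.690 of the control mean (log2 change −0.51 ± 0.06, adjusted p = 0.0794). The receptor for fractalkine, Cx3cr1, marks monocytes and was 30.5, 34.4 and 42.8 FPKM in controls and 21.9, 18.0 and 18.1 in knockouts. It was lower in all 3 batches, by 0.46, 0.90 and 1.20 on the log2 scale in batches 1, 2 and 3, with a knockout mean of 0.538 of the control mean (−0.85 ± 0.12, adjusted p = 0.0854). The female libraries had −0.02 for Trf (limma adjusted p = 0.79) and −0.50 for Cx3cr1 (0.0043), where 49.8% of all tested genes passed in females. The difference between the sexes passed for Trf (0.48, limma adjusted p = 0.0018) and not for Cx3cr1 (0.36, adjusted p = 0.11). Both genes were picked by their male p, and the male change is part of this difference. The test is thus no separate support for a male change. It passed for 34.6% of all tested genes, against 0% for the male change, and the adjustment is milder where more genes pass. Gstm2, a glutathione transferase, was 2.24, 2.40 and 2.71 FPKM in controls and 1.40, 1.504 and 1.26 in knockouts (−0.53 ± 0.08, adjusted p = 0.144).

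Ankrd2, an ankyrin repeat protein known from muscle, was 5.64, 4.33 and 4.98 FPKM in controls and 1.95, 2.83 and 3.49 in knockouts (−0.69 ± 0.14, adjusted p = 0.359). The groups did not overlap, and the difference was widest in batch 1. Fcna, ficolin A, a lectin that starts complement activation, was 11.5, 11.3 and 12.3 FPKM in controls and 8.73, 7.72 and 8.02 in knockouts (−0.47 ± 0.10). Col18a1, a basement membrane collagen, was 7.48, 7.93 and 7.09 FPKM in controls and 5.62, 5.45 and 6.01 in knockouts (−0.34 ± 0.08). Each was lower in all 3 batches. Glul, glutamine synthetase, Gna12, a G protein alpha subunit, Igsf8, a surface protein that binds tetraspanins, and Mvk, mevalonate kinase, completed the 10 protein-coding genes with the smallest p on the lower side, with log2 changes from −0.25 to −0.21.

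On the higher side Pou3f1, a POU-domain transcription factor, stood out in size. Controls had 2.42, 2.59 and 2.23 FPKM and knockouts 4.30, 3.79 and 3.76, 1.64 times the control mean (0.54 ± 0.11, adjusted p = 0.359). The female change of Pou3f1 was 0.39 (limma adjusted p = 0.012). Rasgrp1, an activator of RAS, was 6.37, 6.24 and 7.43 FPKM in controls and 8.86, 8.52 and 8.27 in knockouts (0.32 ± 0.07, adjusted p = 0.361). Mycbp2, a large ubiquitin ligase, was 6.96, 7.48 and 7.51 FPKM in controls and 9.46, 8.83 and 8.55 in knockouts (0.26 ± 0.05). None of these groups overlapped. Ttf1, the RNA polymerase I termination factor (0.24), Tsc1, an inhibitor of mTORC1 signalling (0.23), Uba6, a ubiquitin-activating enzyme (0.22), Luc7l3, a splicing factor (0.22), Spryd7 (0.21), Vwa5a (0.20) and Mrpl21, a mitochondrial ribosomal protein (0.19), completed the 10 with the smallest p. The female knockout effect of Spryd7 was −0.54 and that of Luc7l3 −0.38.

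The other named genes with the largest rises without overlap had a wider spread than Pou3f1. Ndufa12, a complex I subunit, was 15.6, 11.3 and 9.88 FPKM in controls and 27.5, 24.4 and 33.9 in knockouts (1.17 ± 0.50, adjusted p = 0.711). Lars2, mitochondrial leucyl-tRNA synthetase, was 24.4, 29.4 and 28.8 FPKM in controls and 45.0, 30.0 and 52.8 in knockouts (0.58 ± 0.19, adjusted p = 0.653). In Lars2, knockout replicate 2 was within 1 FPKM of the highest control. Dppa3, a germ cell and early embryo factor, had 0.43 and Tmem71 0.40. Dppa3 differed by 0.74 in batch 2 and 0.16 in batch 3.

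The NRF2 and glutathione list had 31 tested genes, of which 28 were below 0, with a median of −0.09. None was higher and 9 were lower at an unadjusted p under 0.05 (the background is 3.16%), and 10 lay wholly below the controls (background 5.24%). This list, like every list described here, was chosen with earlier results of these data known. Gclm, the regulatory subunit of the enzyme that limits glutathione synthesis and whose promoter window is shown above, was 13.1, 12.6 and 11.2 FPKM in controls and 9.93, 10.4 and 9.83 in knockouts (−0.26 ± 0.07, adjusted p = 0.546). Prdx1, a peroxide-removing peroxiredoxin, was 526, 567 and 588 FPKM in controls and 488, 471 and 475 in knockouts (−0.23 ± 0.07). Prdx6, another peroxiredoxin, was 23.0, 26.9 and 26.0 FPKM in controls and 21.2, 20.7 and 19.0 in knockouts (−0.30 ± 0.08). The groups of all 3 stood apart, by margins smaller than the range within the controls. In females Gclm and Prdx1 fell, by 0.60 and 0.36 on the log2 scale (limma adjusted p = 2.5e-05 and 0.0011), while Gstm2 rose by 0.55 (0.00019). The median of the list over all alternatives, leaving out each male library included, stayed between −0.11 and −0.06.

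Iron genes on the list of 27, of which 23 were tested, had 18 below 0 and a median of −0.02, which ran from −0.06 to −0.03 with any 1 male library left out. Of the 23, 6 were lower and none higher at an unadjusted p under 0.05 (background 3.16% and 3.64%), and 5 lay wholly below and 1 wholly above the controls (5.24% and 7.06%). Besides Trf, Hmox1, the heme oxygenase that frees iron from heme, was 223, 229 and 189 FPKM in controls and 167, 188 and 183 in knockouts (−0.25 ± 0.09, adjusted p = 0.675). Fth1, the ferritin heavy chain, was 2776, 3077 and 2832 FPKM in controls and 2582, 2483 and 2640.4 in knockouts (−0.17 ± 0.06, adjusted p = 0.675). Slc46a1, a folate and heme carrier, was 3.75, 3.82 and 4.12 FPKM in controls and 3.30, 3.62 and 2.98 in knockouts (−0.19 ± 0.06). These groups did not overlap, but the nearest libraries of Hmox1, control replicate 3 and knockout replicate 2, differed by under 1%. Both Fth1 and Hmox1 rose in females, by 1.15 and 0.88.

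Interferon-stimulated genes had 46 tested members, 42 above 0, with a median of 0.08, which was 0.13 without control replicate 3. Of these 4 were higher and 1 lower at an unadjusted p under 0.05, against 3.64% and 3.16% of all tested genes, and 15 lay wholly above the controls, where the background is 7.06%. Gbp7, a guanylate-binding protein whose window is shown above, was 31.1, 32.5 and 33.4 FPKM in controls and 36.7, 39.1 and 39.4 in knockouts (0.24 ± 0.06, adjusted p = 0.653). Trim30a, a TRIM protein induced by interferon, was 124, 134 and 140.0 FPKM in controls and 158, 158 and 159 in knockouts (0.26 ± 0.08). Iigp1, an immunity-related GTPase, was 26.9, 26.8 and 33.1 FPKM in controls and 35.5, 34.4 and 42.4 in knockouts (0.36 ± 0.14). Control replicate 3 was the highest control of each. Parp9 was higher by 0.18 in the fit. The same 4 genes rose in females by 1.84, 2.08, 2.53 and 1.91 in the order Gbp7, Trim30a, Iigp1 and Parp9, and the sex difference passed for each. The list's median deviation from the 6-library mean was −0.14, −0.05 and 0.03 in control replicates 1, 2 and 3 and 0.04, 0.00 and 0.08 in the knockouts. Control replicate 3 lay above knockout replicate 2, so on the list's median the groups overlapped.

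**Figure D3:**
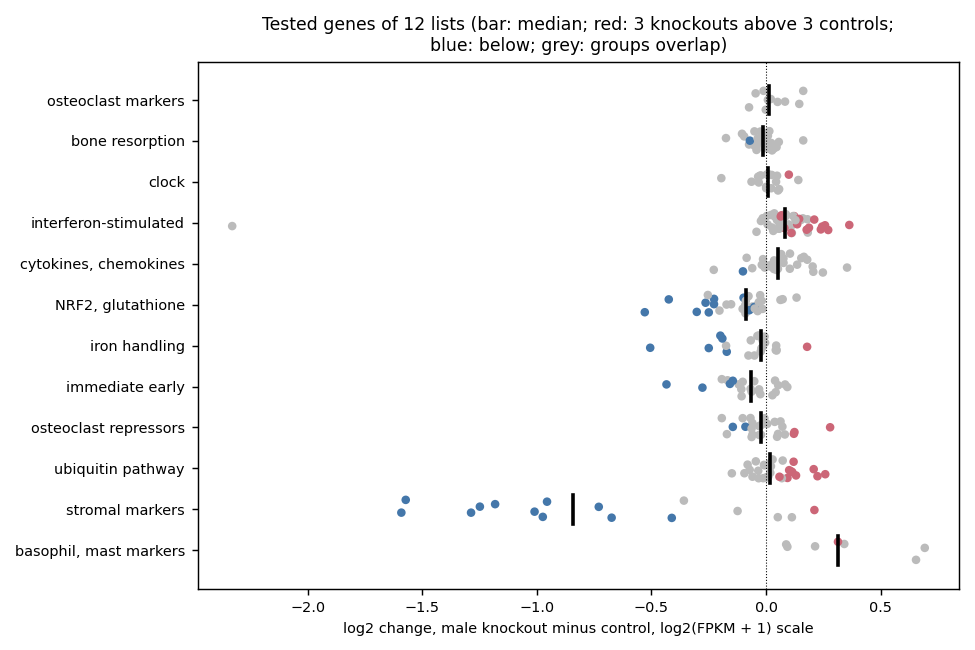
Log2 change of each tested gene of 12 lists, male knockout minus control; black bars are list medians, red points have all 3 knockouts above all 3 controls, blue points all 3 below, and grey points overlap. The NRF2 median is −0.09, the interferon median 0.08 and the stromal median −0.84, and the single far point of the interferon list is Ifi208.

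Cytokines and chemokines had a median of 0.05 over 29 tested genes, with 22 above 0, none wholly above the controls and 1 wholly below (background 7.06% and 5.24%). The median was 0.02 without control replicate 1 and 0.12 without control replicate 3. Cxcl9, an interferon-induced chemokine, was the highest estimate (0.35, interval −0.04 to 0.75). Cxcl2, a neutrophil chemokine, was the lowest (−0.23, interval −0.67 to 0.21). Tgfb1 was 43.5, 45.4 and 42.5 FPKM in controls and 42.5, 39.2 and 40.7 in knockouts, with the nearest libraries under 1% apart (−0.10 ± 0.05).

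Immediate early genes, which respond within minutes to signals and to handling of cells, had 16 of 22 below 0 and a median of −0.07, which was −0.02 without control replicate 3 and −0.10 without control replicate 1. Of these 4 were lower at an unadjusted p under 0.05 (background 3.16%), and the same number lay wholly below the controls (5.24%). Egr1, a zinc finger factor, was 11.8, 11.7 and 10.7 FPKM in controls and 8.53, 8.08 and 7.92 in knockouts (−0.43 ± 0.10, adjusted p = 0.531). Ier2 was 52.4, 56.0 and 48.6 FPKM in controls and 42.3, 41.2 and 45.4 in knockouts (−0.28 ± 0.08). Fos, the AP-1 subunit that osteoclast formation needs, was 181, 192 and 178 FPKM in controls and 162, 167 and 163 in knockouts (−0.16 ± 0.06). The within-batch differences of Egr1 were alike, −0.43, −0.48 and −0.40. In females Egr1 rose by 3.14, Ier2 by 1.45 and Fos by 0.67, and the sex difference passed for all 3.

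Repressors of osteoclast formation had 10 of 25 above 0 and a median of −0.02, with 3 higher and 1 lower at an unadjusted p under 0.05 (background 3.64% and 3.16%). Lilrb4a, an inhibitory receptor, was 56.6, 52.5 and 51.7 FPKM in controls and 65.6, 64.0 and 66.0 in knockouts (0.28 ± 0.07, adjusted p = 0.653). Tnfaip3, the NF-kB inhibitor A20, was 15.8, 17.1 and 15.9 FPKM in controls and 18.0, 17.5 and 17.8 in knockouts (0.12 ± 0.04). Cyld, a deubiquitinase that limits RANK signalling, was 6.76, 6.86 and 7.01 FPKM in controls and 7.52, 7.81 and 7.37 in knockouts (0.12 ± 0.04). All 3 stood apart from the controls, and the difference between the sexes was not called for any of them. Zfp36, which destabilises cytokine mRNAs, was 65.0, 69.4 and 63.4 FPKM in controls and 60.2, 59.8 and 58.4 in knockouts (−0.15 ± 0.05).

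Of 31 ubiquitin pathway genes, 10 lay wholly above the controls and none below (7.06% and 5.24% of all tested genes), with a median of 0.02. Besides Mycbp2 and Uba6, Ubr4, a giant ligase of the N-degron pathway, was 20.1, 19.9 and 19.1 FPKM in controls and 24.0, 21.2 and 23.5 in knockouts (0.21 ± 0.06, adjusted p = 0.653). Birc6, another giant ligase, was 9.38, 9.73 and 9.30 FPKM in controls and 10.4, 10.3 and 10.4 in knockouts (0.12 ± 0.04). Of 30 splicing genes, 5 lay wholly above and none below, against the same 7.06% and 5.24%, with a median of 0.02. Clk1, a kinase of SR proteins, was 10.1, 9.68 and 11.1 FPKM in controls and 11.8, 11.9 and 11.7 in knockouts (0.18 ± 0.07).

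Several of these are long genes, and the share of genes without overlap moved with gene length. Protein-coding genes were cut into 5 groups of equal number by the length in the deposited table. In these, all 3 knockouts lay above all 3 controls for 3.13% of the shortest group, 4.19%, 6.20% and 8.86% of the next, and 13.7% of the longest. All 3 lay below for 8.08%, 7.32%, 5.48%, 3.71% and 2.50%, in the same order. The median change went from −0.02 in the shortest to 0.03 in the longest group. Per library the longest group stood above the shortest by 0.03, −0.02 and −0.07 in control replicates 1, 2 and 3 and by 0.03, 0.02 and 0.01 in knockouts 1, 2 and 3, so control replicate 1 lay within the knockouts. The difference in median change between the longest and shortest groups was 0.05, and it was 0.02 without control replicate 3 and 0.07 without control replicate 1. With the median of its length group subtracted from each gene, the NRF2 median was −0.08, with 28 of 31 below, and the interferon median 0.08, with 41 of 44 protein-coding members above. That of the ubiquitin list was 0.01 and that of the splicing list 0.00, with 15 of 30 on each side. RNA integrity was not given, and its part in these differences was not tested.

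**Figure D4:**
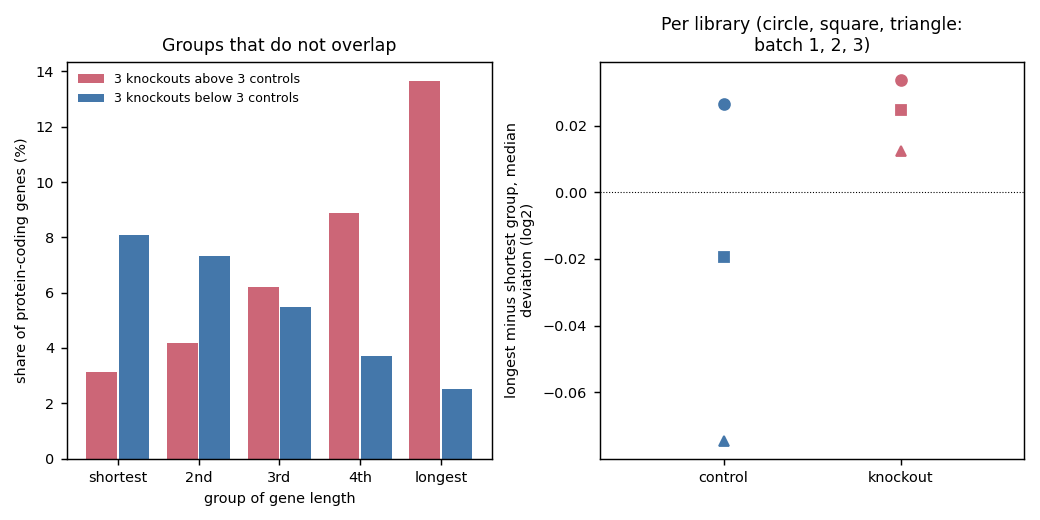
Left: share of protein-coding genes, in %, whose 3 male knockout libraries all lie above (red) or below (blue) the 3 controls, in 5 groups of gene length. Right: median deviation of the longest group minus that of the shortest, on the log2 scale, for each library; control replicate 3 is lowest at −0.07 and the knockouts lie between 0.01 and 0.03.

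The largest estimates without overlap were those of collagen and matrix genes, which bone marrow stromal cells and osteoblasts make. In bulk cultures fewer cells of a type and less RNA per cell cannot be told apart. Sparc, a collagen-binding matrix protein, was 3.45, 4.81 and 7.06 FPKM in controls and 1.21, 1.27 and 0.524 in knockouts (−1.59 ± 0.52, adjusted p = 0.653). Col1a1, for the first alpha chain of bone's main collagen, had 4.16, 6.65 and 9.74 FPKM in controls and 1.66, 2.21 and 0.889 in knockouts (−1.57 ± 0.57, adjusted p = 0.686). Control replicate 3 was the highest and knockout replicate 3 the lowest library of both, so the difference was widest in batch 3, −2.40 for Sparc and −2.51 for Col1a1, and narrowest in batch 1, −1.01 and −0.95. Col3a1, of fibrillar type III collagen, was 2.38, 3.16 and 6.47 FPKM in controls and 0.885, 1.24 and 0.712 in knockouts. Serpinh1, the collagen chaperone, was 3.02, 3.61 and 5.96 FPKM in controls and 1.45, 1.82 and 0.393 in knockouts. These repeat the order of the libraries within each group. Col1a2 had 2.22, 3.05 and 5.27 FPKM in controls and 0.955, 1.23 and 0.609 in knockouts, and Bgn, the proteoglycan biglycan, 0.973, 1.86 and 2.73 FPKM and 0.416, 0.501 and 0.357. Fn1, fibronectin, which macrophages also make, was 10.9, 12.0 and 14.8 FPKM in controls and 10.3, 9.05 and 8.09 in knockouts (−0.41 ± 0.12).

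Of the 34 stromal, osteoblast and endothelial markers, 16 were tested, and the other 18 were below the filter. Among the 16, 13 were below 0, 10 were lower at an unadjusted p under 0.05 (background 3.16%), and 11 lay wholly below and 1 wholly above the controls (5.24% and 7.06%). The median was −0.84, between −1.05 and −0.68 with any 1 male library left out, and −0.34 with a pseudocount of 5 and −1.46 with voom. The passing of the filter itself can depend on the group in which a gene is high, so these counts describe the tested members only. The summed FPKM of all 34 was 60.3, 75.0 and 102 in controls and 53.2, 50.7 and 44.8 in knockouts, without overlap. The osteoblast marker Ibsp was at 0 in all 6 libraries. The range within the controls was wider than the gap between the nearest libraries of the 2 groups. In females the median of the list was −0.28. The female sums of all 34 overlapped, with 74.3, 49.8 and 28.8 FPKM in controls and 55.6, 29.9 and 42.0 in knockouts. The sex difference was called for 1 of the 16, where it was for 34.6% of all tested genes. The male SE was 0.52 for Sparc and 0.57 for Col1a1, against a median of 0.0754 over all tested genes. With such a spread a difference could go uncalled, so the low share does not show that the sexes were alike. Sparc differed by 1.19 and Col1a1 by 1.26, female minus male, without passing (limma adjusted p = 0.24 and 0.25).

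**Figure D5:**
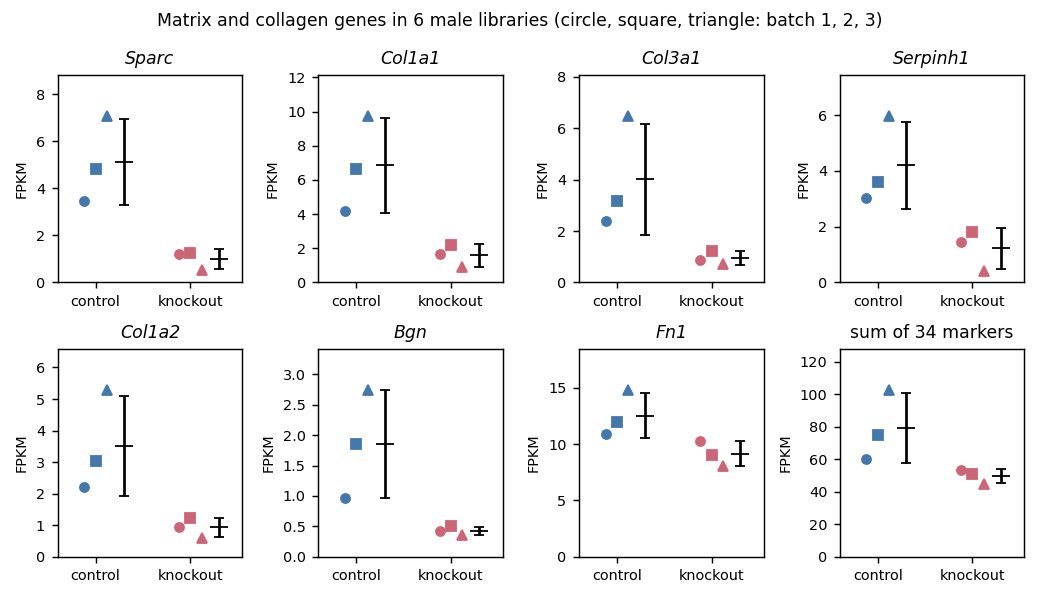
FPKM of 7 matrix and collagen genes and the summed FPKM of 34 stromal, osteoblast and endothelial markers in the 6 male libraries, each panel from 0; blue points are controls, red points knockouts, shapes mark the batch, and black marks the mean and SD (n = 3). The sum is 60.3 to 102 in controls and 44.8 to 53.2 in knockouts, and in all 8 panels control replicate 3 is the highest control and knockout replicate 3 the lowest knockout.

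Macrophage markers had 21 tested genes, 9 of them above 0, and a median of −0.02. None was higher and 4 were lower at an unadjusted p under 0.05 (background 3.64% and 3.16%), Cx3cr1 and Csf1r among them. The highest estimate was that of Ccr2, a chemokine receptor of monocytes (0.16). Mrc1, the mannose receptor, was 16.4, 15.0 and 13.8 FPKM in controls and 11.1, 13.6 and 12.0 in knockouts (−0.28 ± 0.09, adjusted p = 0.653). Vsig4, a complement receptor of resident macrophages, was 1.75, 1.29 and 1.68 FPKM in controls and 0.641, 0.663 and 0.950 in knockouts (−0.56 ± 0.22, adjusted p = 0.708). Both groups stood apart. The summed level of the 24 markers was 15199 to 18459 FPKM in controls and 15866 to 17014 in knockouts.

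The medians of the clock, M-CSF and RANK, fusion, resorption, repressor, ubiquitin, splicing and macrophage lists were at most 0.02 in size. Over all alternatives they ran from −0.07 to 0.04, and all of these except the repressor and ubiquitin medians changed sign under at least 1.

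Summed markers of other blood cells moved with single libraries. The sum of 14 basophil and mast cell markers was 19.0, 16.9 and 38.1 FPKM in controls and 56.5, 24.7 and 31.1 in knockouts, with control replicate 3 and knockout replicate 1 highest in their groups. Mcpt8, a basophil protease, was 1.58, 1.60 and 4.49 FPKM in controls and 9.73, 2.85 and 2.76 in knockouts. Gata2, a transcription factor of these cells and of blood progenitors, was 1.35, 1.09 and 1.48 FPKM in controls and 1.92, 1.67 and 1.99 in knockouts (0.31 ± 0.10, adjusted p = 0.653). It was the 1 marker of the 7 tested that lay wholly above the controls (background 7.06%). All 7 were above 0, with a median of 0.31, which ran from 0.12 to 0.65 over all alternatives. The sum of 14 B cell markers was 66.8, 77.5 and 128 FPKM in controls and 125, 52.2 and 72.6 in knockouts. That of 15 neutrophil markers was 3375, 3999 and 5684 FPKM in controls and 4827, 3891 and 4360.2 in knockouts. The same pair of libraries was highest in each of these lists, groups overlapped, and the part of these cells in the changes above was not tested. The mast cell proteases Cma1 and Mcpt4 were at 0 in all 6 libraries. Of tested markers, 3 of 9 for B cells and 9 of 15 for neutrophils were above 0. All 9 tested dendritic cell markers were above 0, with a median of 0.08, and none lay wholly above the controls (background 7.06%).

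The neighbourhood of Per2 was read because a knockout chromosome can carry linked variants. Within 20 Mb of it, by the positions in the table, 144 of 739 genes were tested, with 71 above 0 and a median of 0.00. Of these 8 were higher and 7 lower at an unadjusted p under 0.05 (background 3.64% and 3.16%), and 6 lay wholly above and 9 wholly below the controls (7.06% and 5.24%). Dock10, a guanine exchange factor, was 14.8, 14.5 and 13.7 FPKM in controls and 16.2, 16.0 and 16.3 in knockouts (0.17 ± 0.04, adjusted p = 0.653). Wdfy1 lay 11.6 Mb below Per2 and took 2 levels in the male libraries. Male controls had 33.4, 33.7 and 31.7 FPKM and male knockouts 19.5, 20.5 and 32.9, so knockout replicate 3 lay with the controls. In the female libraries controls had 21.4, 20.2 and 20.3 FPKM and knockouts 27.1, 31.2 and 27.3, the opposite order.

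Ifi208, an interferon-inducible gene 82.1 Mb from Per2 on the same chromosome, which was singled out after its values were seen, was nearly absent from 2 of the 3 male knockouts. It was 10.9, 12.0 and 25.9 FPKM in male controls and 0.0483, 26.0 and 0.158 in male knockouts, so knockout replicate 2 lay at the level of the highest control. Female controls had 0, 0.0712 and 0.244 FPKM and female knockouts 8.04, 5.62 and 4.03. The male log2 change was −2.33 ± 0.97 (adjusted p = 0.708). The 2 male knockout libraries low for Ifi208 were replicates 1 and 3, and those low for Wdfy1 were replicates 1 and 2. Ifi208 belongs to a family of similar genes, so its reads are uncertain. Strain background was not given, and neither its part nor whether each library matches its label was tested.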

How the data were processed

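RNA sequencing libraries of osteoclast cultures were aligned with HISAT2 2.0.5 to mm10 and counted with featureCounts 1.5.0-p3, per the submitters' processing notes, and the authors deposited FPKM per gene for each library. The strand setting is not given in the sources used here, so reads of a gene and of one overlapping it on the other strand cannot be separated. Dividing the FPKM by the value of 1 read returned whole reads for 100.0% of values (within 0.01), which gave the depths printed. The values of the 12 libraries were taken as log2(FPKM + 1). Genes at 1 FPKM or more in at least 3 libraries were tested with limma 3.58.1 (R 4.3.3), with 4 group means, a trend in the prior variance, and Benjamini-Hochberg adjustment over all tested genes at 0.05. All limma tests were two-sided, adjusted p-values in the text are limma's, errors are SE, and intervals are unadjusted 95% intervals. The fit was tested on simulated data. Tables and plots used Python 3.11.15, pandas 2.3.3, numpy 2.4.6 and matplotlib 3.10.9.

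Labels give same-numbered libraries the same batch, so the numbers pair control and knockout, although their deviations correlated at only −0.118, 0.092 and −0.0436. Replicates of a group had r of 0.986 to 0.992 and differed beyond sampling noise.

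Named genes are the 10 protein-coding genes with the smallest p in each direction, the 5 largest rises and falls without overlap, up to 4 members with the smallest p from each list, a fixed set of clock and osteoclast genes, and up to 4 genes near Per2. Some further list members are given as values. The members and lists were chosen with earlier results of these data known. Alternatives changed the pseudocount, filter, scaling, weights, batch term, depth and libraries used. File positions were used only for distances. A member of the clock list is not reported here by name.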

Additional observations from a re-analysis of the deposited data

Results flagged for a closer look

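The results below stood out because the knockout effect differed between female and male cultures, by the interaction term of the limma fit at an adjusted p of 0.05. This held for 50 of the 94 genes followed through the alternatives, and 34.6% of all tested genes passed the same test. The 94 genes were picked largely by a small male p, and the male change is part of the difference. Their share is thus not a like comparison with that of all tested genes. In the wider set that the naming rule gives, 68 of 139 genes passed, and those beyond the 50 are not described here. Each value is the female minus the male log2 change, so a value above 0 means that the female change was the more positive one. With 3 libraries a group, no search for single outlying libraries was made. Male and female libraries also stood apart as sets. Mitochondrial reads were 1.47 to 1.75% of assigned reads in males and 2.12 to 3.12% in females. Macrophage marker sums were 15199 to 18459 FPKM in male controls and 7648 to 9350 in female controls. Sex cannot be told apart from such differences between the sets, whose part was not tested.

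Immediate early genes and Zfp36, a destabiliser of cytokine mRNAs, lay above 0. Egr1 differed by 3.58, Zfp36 by 1.85, Ier2 by 1.73 and Fos by 0.83. Among interferon-stimulated genes Iigp1 differed by 2.17, Trim30a by 1.82, Parp9 by 1.73 and Gbp7 by 1.60. Ifi208 differed by 4.94 and Wdfy1 by 0.91, and both took low and high levels in single libraries. Of the cytokines, Cxcl2 differed by 2.27, the dendritic cell chemokine Ccl22 by 1.49 and Tgfb1 by 0.69.

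Among iron and antioxidant genes, Fth1 differed by 1.32, Hmox1 by 1.13, Gstm2 by 1.08, Trf by 0.48, Slc46a1 by 0.44 and Prdx6 by 0.33, whereas Gclm differed by −0.34. Genes of osteoclasts and macrophages differed by 1.27 (Mrc1), 1.00 (Cd81), 0.69 (Atp6v0d1), 0.51 (Mmp9), 0.37 (Csf1r), 0.37 (Acp5) and 0.17 (Syk). The values of other genes with a small p in males were 1.04 for Ankrd2, 0.64 for Gna12, 0.63 for Col18a1, 0.63 for Fcna, 0.48 for Mvk and 0.21 for Igsf8.

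Differences below 0 were found for the proliferation marker Mki67, with −0.99. Splicing genes had −1.10 (Clk1), −0.61 (Luc7l3), −0.44 (Prpf4b) and −0.37 (Rbm39). Further values were −0.75 for Spryd7, −0.57 for Uba6, −0.44 for Tsc1, −0.41 for Mrpl21, −0.38 for Dock10, −0.36 for Pign, −0.31 for Ttf1 and −0.19 for Birc6. Markers of other blood cells gave −1.91 for Mcpt8, −1.90 for Prss34 and −1.52 for Retnlg, while Mpo, of neutrophil precursors, gave 0.50.

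Of the 50 genes, 40 passed the interaction test under every alternative that gave a value, a check chosen after seeing the data. The others, Acp5, Csf1r, Ifi208, Igsf8, Mcpt8, Mmp9, Mpo, Prdx6, Prss34 and Syk, missed the threshold under at least 1 alternative, and no gene changed sign. With assigned reads as the denominator the median difference over all tested genes moved by −0.0865, and with voom by −0.101.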

How the results depend on the processing

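No gene was called in males with a pseudocount of 0.1, no filter, the 6 male libraries alone, median-ratio scaling, quantile scaling or thinning of knockout replicate 2. With batch as a replicate block, which pairs same-numbered libraries, the count was also 0, and 4174 genes passed the sex difference against 4185. A pseudocount of 5 called 4 genes, Cx3cr1 and Trf lower and Pou3f1 and Gm13822 higher. The filter at 5 FPKM, the assigned reads, the array quality weights and voom each called 2, Cx3cr1 and Trf. Leaving out 1 male library called 0 to 1 gene: Trf without knockout replicate 1, Ifi208 (−3.87) without knockout replicate 2 and Wdfy1 (−0.69) without knockout replicate 3. The cause of these changes was not tested. The sex difference passed for 3514 to 5005 genes over alternatives, and for 3628 to 4039 with 1 male library left out. Of these, 51.7% were higher in the female comparison as reported, 34.4% with assigned reads and 35.4% with voom. The Per2 ratio was 0.540 to 0.571 under other scalings and thinning and 0.465 to 0.642 with 1 library left out. Of 1668 values of 94 named genes, 30 changed sign, none past the threshold, over 10 genes. List medians and the length trend were examined under each alternative after seeing the data. The stromal median was −0.34 with a pseudocount of 5 and −1.46 with voom. The depth behind Per2, 21 to 86 reads, limits its ratio. With 3 libraries a group, a change could go uncalled even where its printed interval, which is unadjusted, excluded 0. Trf and Cx3cr1 had intervals wholly below 0 and still missed the adjusted threshold in the fit as reported.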
